A study of Mus musculus with 20 samples.

Results

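The chromatin around Sox17, Sox7 and Sox18, the 3 genes of the SOXF subfamily, was followed through 27 of the 42403 GATA6 binding regions profiled in mouse cells. A region was taken when its midpoint lay within 100 kb of the GENCODE vM21 start of any of the 3 genes in mm10, so the choice used position and no measured signal. The Sox17 locus held 11 regions, the Sox7 locus 12 and the Sox18 locus 4. Across 21951 protein-coding genes the median was 4 regions within 100 kb, and Sox17 had more than 90.03% of them, Sox7 more than 92.7% and Sox18 more than 44.0%. Accessibility was measured by ATAC-seq, in which the Tn5 transposase cuts open DNA, and is given in RPM, the reads of a region scaled to the total of the library. A region's value grows with its width, so levels of different regions are compared only per kb.

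The cells were KH2 embryonic stem (ES) cells of C57BL/6 x 129/Sv background that carry a doxycycline-inducible, HA-tagged Gata6 transgene, described by the study as selected clones. They were profiled untreated (d0) and after 1 µg/mL doxycycline, in the groups titled 8 h, 16 h, day 1 (d1), day 2 (d2) and day 4 (d4), with 3 samples each and 2 at d4. The treatment labels of these groups read 16, 24, 48, 72 and 96 h, so the titles are used here as names and the elapsed hours before d4 remain uncertain. A further 3 samples came from the untreated wild-type XEN line X10, of CD1 background and grown in other medium, so line, strain and culture cannot be told apart from cell state in any comparison with it. In all, 20 samples were labelled, and the ES cells of every group carried the transgene. Doxycycline, time in culture and the transgene therefore cannot be told apart in the induced groups, and no embryo was profiled. Loss of signal in part of the cells and weaker signal in each cell cannot be told apart in such bulk samples.

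SOXF proteins are HMG-box transcription factors. SOX17 marks the primitive endoderm (PrE) of the blastocyst and the definitive endoderm, SOX7 is expressed in parietal endoderm and in developing vessels, and SOX18 is best known from blood and lymphatic vessel development. GATA6, a zinc-finger factor that binds the motif AGATAA, drives the PrE fate, and XEN cells are stem cells derived from that lineage. OCT4, SOX2 and ESRRB, together called pluripotency transcription factors (PTF), maintain ES cells and bind many of the same elements. In mm10, Sox17 (ENSMUSG00000025902.13) lies on the minus strand at chr1:4490931-4497354, Sox7 (ENSMUSG00000063060.6) on the plus strand at chr14:63943673-63950732 and Sox18 (ENSMUSG00000046470.5) on the minus strand at chr2:181669836-181671640. Regions are named by the distance of their midpoint from the gene start, with minus for upstream.

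The regions that carry the results differ in which of these motifs they hold. Sequence was read from GRCm38 (mm10), 5′ to 3′ on the strand of the motif, and capitals mark the best-scoring match that the deposited table lists for GATA6, for SOX17 or for the composite OCT4:SOX2 motif. The first 4 windows are from the Sox17 locus. They show the region with the largest change (-40.4 kb), the region that also stayed high in XEN cells (+23.1 kb), and the neighbouring pair bound by PTF before induction (+72.7 and +74.7 kb, the latter with no GATA6 match listed).
Sox17 -40.4 kb, chr1:4538414-4538613, + strand: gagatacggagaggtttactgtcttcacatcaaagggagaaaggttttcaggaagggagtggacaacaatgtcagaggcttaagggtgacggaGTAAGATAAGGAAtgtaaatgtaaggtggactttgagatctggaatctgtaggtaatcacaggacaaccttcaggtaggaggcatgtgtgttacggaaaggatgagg
Sox17 +23.1 kb, chr1:4474585-4474784, - strand, GATA6 then SOX17: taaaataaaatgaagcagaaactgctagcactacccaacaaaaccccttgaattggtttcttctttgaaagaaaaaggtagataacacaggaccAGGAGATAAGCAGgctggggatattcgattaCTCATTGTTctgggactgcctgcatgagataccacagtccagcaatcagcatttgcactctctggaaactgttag
Sox17 +72.7 kb, chr1:4424660-4424859, - strand: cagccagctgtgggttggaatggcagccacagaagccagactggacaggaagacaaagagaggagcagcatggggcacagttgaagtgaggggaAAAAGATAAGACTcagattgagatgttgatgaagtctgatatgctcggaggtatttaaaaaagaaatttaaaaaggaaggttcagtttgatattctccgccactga
Sox17 +74.7 kb, chr1:4422294-4422493, + strand, SOX17: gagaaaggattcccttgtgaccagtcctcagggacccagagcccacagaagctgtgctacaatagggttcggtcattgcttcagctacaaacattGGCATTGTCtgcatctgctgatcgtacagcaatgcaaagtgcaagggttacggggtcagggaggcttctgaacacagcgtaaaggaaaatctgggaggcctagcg

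The next 3 windows place the GATA6 match in a PTF-bound region that lost signal (Sox7 -7.0 kb), in a PTF-bound region that gained it (Sox7 +58.5 kb), and in a Sox18 region that changed little up to d4 (-52.0 kb). In Sox7 -7.0 kb the centres of the GATA6 and OCT4:SOX2 matches were 33 bp apart, and its OCT4:SOX2 score of 16.96 was above that of 99.1% of the regions with such a match. In Sox18 -52.0 kb they were 28 bp apart, at a score of 12.94.
Sox7 -7.0 kb, chr14:63936554-63936753, + strand, GATA6 then OCT4:SOX2: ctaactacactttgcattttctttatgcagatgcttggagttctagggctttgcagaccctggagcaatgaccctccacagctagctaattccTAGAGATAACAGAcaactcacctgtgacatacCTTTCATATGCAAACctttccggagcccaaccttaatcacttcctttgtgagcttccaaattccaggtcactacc
Sox7 +58.5 kb, chr14:64002768-64002967, - strand: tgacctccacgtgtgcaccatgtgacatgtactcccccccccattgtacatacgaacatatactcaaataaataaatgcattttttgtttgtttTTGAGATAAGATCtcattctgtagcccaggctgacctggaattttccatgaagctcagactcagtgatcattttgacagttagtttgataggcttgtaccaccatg
Sox18 -52.0 kb, chr2:181723393-181723592, - strand, OCT4:SOX2 then GATA6: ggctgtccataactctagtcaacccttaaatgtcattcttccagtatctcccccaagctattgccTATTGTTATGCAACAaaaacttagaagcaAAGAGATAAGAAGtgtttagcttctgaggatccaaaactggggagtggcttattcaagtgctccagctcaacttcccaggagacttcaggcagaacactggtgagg

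Shorter windows of 40 bases show the SOX17 match in 5 regions of the SOX17-bound class that opened, and the GATA6 match in 2 further regions. Sox7 +23.2 kb had the best GATA6 score of its locus (13.76). Sox18 -13.3 kb scored 14.44, below the 14.59 of Sox18 -52.0 kb.
Sox17 -40.4 kb, SOX17, chr1:4537006-4537045, - strand: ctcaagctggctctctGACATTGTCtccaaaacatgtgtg
Sox17 -74.5 kb, SOX17, chr1:4571617-4571656, - strand: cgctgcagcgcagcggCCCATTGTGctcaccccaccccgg
Sox7 -5.0 kb, SOX17, chr14:63938330-63938369, + strand: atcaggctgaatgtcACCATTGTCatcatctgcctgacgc
Sox7 -1.3 kb, SOX17, chr14:63941864-63941903, + strand: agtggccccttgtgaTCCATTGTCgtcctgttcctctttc
Sox7 +93.0 kb, SOX17, chr14:64036445-64036484, + strand: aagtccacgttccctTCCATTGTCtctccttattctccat
Sox7 +23.2 kb, GATA6, chr14:63966788-63966827, - strand: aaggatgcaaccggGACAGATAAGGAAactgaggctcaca
Sox18 -13.3 kb, GATA6, chr2:181684900-181684939, - strand: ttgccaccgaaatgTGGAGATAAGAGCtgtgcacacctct

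The table lists a GATA6 match in 24 of the 27 regions and in 89.7% of all regions, and a SOX17 match in 21 and in 69.2%. Counted instead as short words on either strand in the 300 bases around each midpoint, AGATAA was present in 12 of the 27 and in 54.5% of all regions. CATTGT was present in 5 and in 26.6%. The 4 Sox18 regions all held AGATAA, and their median GATA6 score of 14.32 was above the 10.18 of all regions with a match, whereas the medians at Sox17 and Sox7 were 10.07 and 9.58. A match is a description of the sequence and no record of binding.

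The group average of most SOXF regions was highest at d2 of induction, in 17 of 27 regions compared with 39.4% of all 42403 regions. From d2 to d4 the average fell in 21 of the 27 (65.8% of all regions). The median d4 to d2 ratio was 0.782, beside 0.809 over all regions, so this fall was near that of the whole table. Because the deposited values for d0 are averages alone, changes against d0 carry no replicate error. They are differences of log2(RPM + 0.03), a scale that understates the change of low regions.

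Against d0, 9 of the 27 regions were more than 2-fold higher at d1, where 4.55% of all regions were. At d2 the count was 20, against 36.8% of all regions, and at d4 it was 18, against 31%. A single SOXF region was more than 2-fold lower at d4 (7.27% of all regions). In XEN cells 11 regions were more than 2-fold higher (27.7%) and none lower (8.83%). The median change of the 27 was 0.71 at d1, 1.76 at d2, 1.35 at d4 and 0.65 in XEN cells. The same medians over all regions were 0.31, 0.69, 0.52 and 0.40, and these shifts of the whole table are part of every value below. With each column centred on its own median, 2 of the regions more than 2-fold higher remained so at d1, 11 at d2, 12 at d4 and 5 in XEN cells. After centring, Sox7 -7.0 kb was more than 2-fold lower at d2, d4 and in XEN cells, and Sox7 +49.7 kb at d4.

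**Figure D1:**
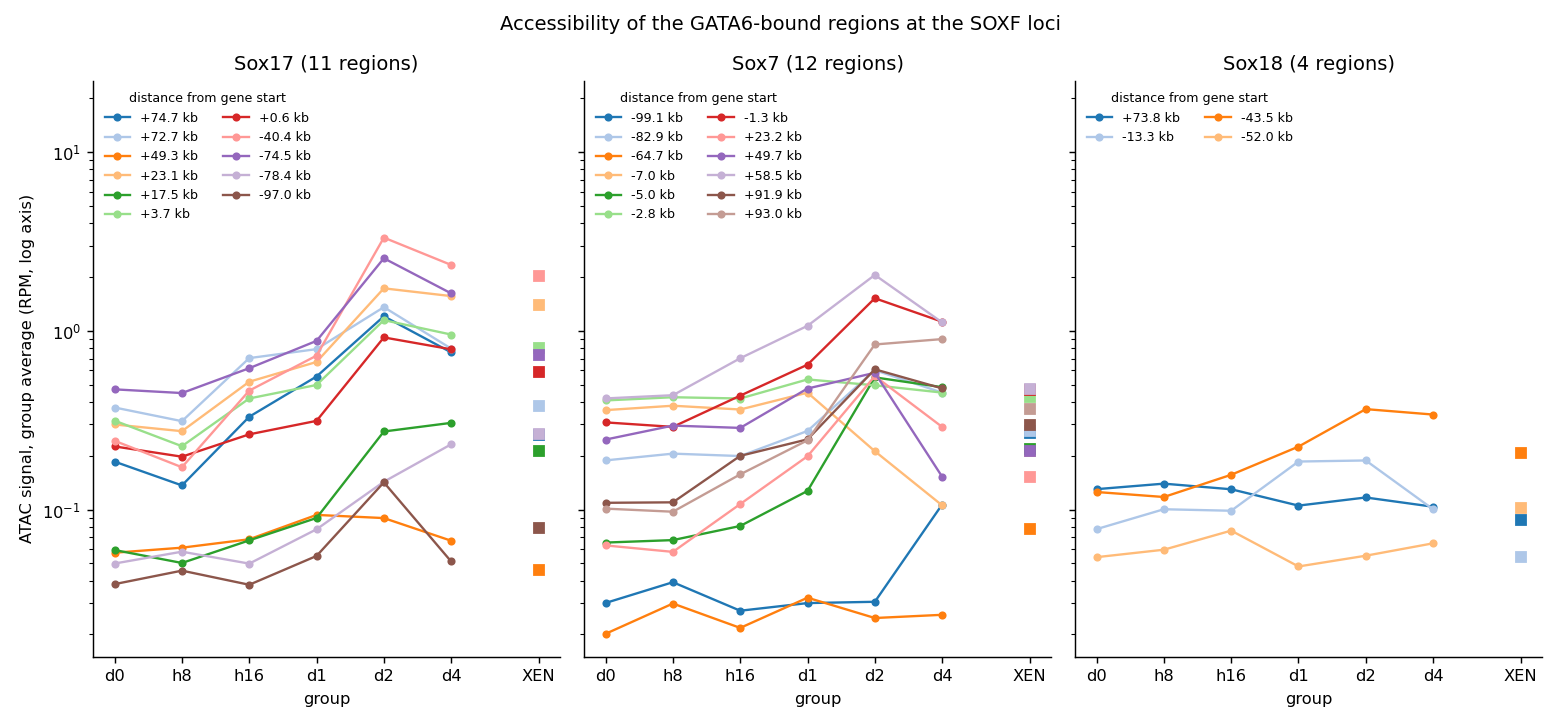
Group averages of the 27 regions (RPM, log axis) by locus, one line per region over d0, 8 h, 16 h, d1, d2 and d4, with squares for XEN cells. Most Sox17 and Sox7 lines climb to d2, Sox17 -40.4 kb (2382 bp wide) to 3.32 RPM, and the 4 Sox18 lines stay at or below 0.365 RPM. Values grow with region width, so the heights of lines are not compared between regions or loci.

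By locus, 10 of 11 Sox17 regions, 8 of 12 Sox7 regions and 2 of 4 Sox18 regions were more than 2-fold above d0 at d2 (36.8% of all regions). The median change at d2 was 1.79 at Sox17, 1.87 at Sox7 and 0.52 at Sox18, and at d4 it was 1.71, 1.27 and 0.22. Regions whose nearest protein-coding start was the SOXF gene itself made up 8 of 11 at Sox17, 4 of 12 at Sox7 and 0 of 4 at Sox18, where 10 other coding genes start within the same distance. Assignment of a region to a gene is by distance alone. Differences between the loci were not tested, since regions of a locus are no replicates.

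**Figure D2:**
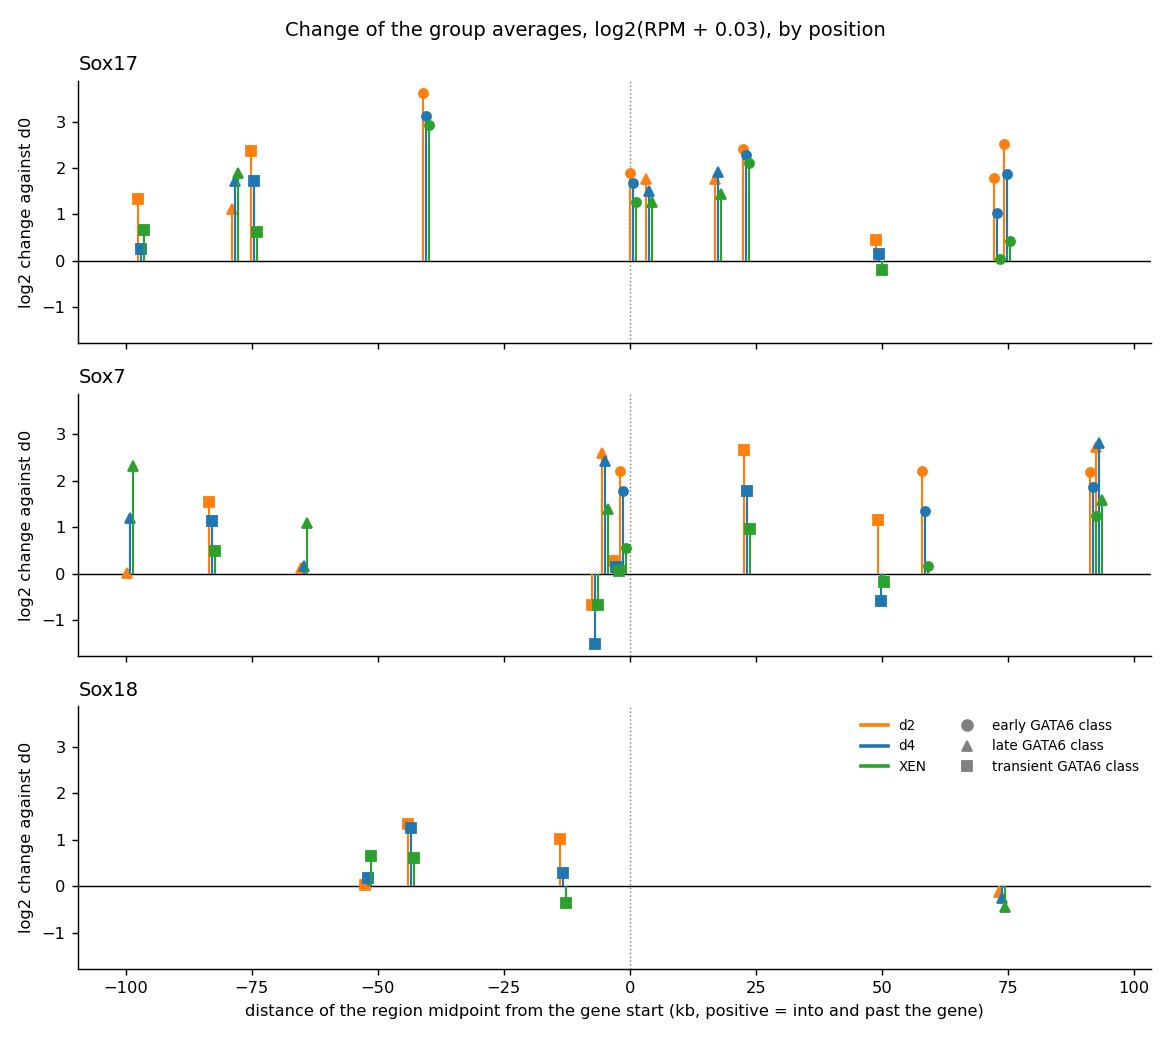
Change of the group averages against d0 on the log2(RPM + 0.03) scale, at d2, d4 and in XEN cells, against the distance of each region from the gene start in kb. Marker shapes give the GATA6 binding class. The tallest bars stand at Sox17 -40.4 kb (3.62 at d2), and Sox7 -7.0 kb points down at all 3 (-1.52 at d4).

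At Sox17 the values of single libraries were recovered from the averages for 8 h onwards, which allows a test. The largest change was upstream at -40.4 kb, an intergenic region (chr1:4536608-4538990) of the Early&Constant GATA6 class that also gains SOX17 and becomes bound by PTF only after induction ("ectopic"). Its libraries gave 0.104, 0.202 and 0.211 RPM at 8 h, 0.397, 0.455 and 0.536 at 16 h, and 0.762, 0.875 and 0.543 at d1. They gave 3.02, 4.34 and 2.62 RPM at d2, 2.66 and 2.02 at d4, and 2.26 and 1.81 in XEN cells. Every library from 16 h on lay above every 8 h library, and all d2, d4 and XEN libraries lay above all earlier ones. In limma fitted to 24727 regions, with Benjamini-Hochberg adjustment over all of them, the log2 change against 8 h was 1.32 ± 0.32 (SE) at 16 h (adjusted p = 0.086), 1.92 ± 0.32 at d1 (5.9e-06) and 4.06 ± 0.32 at d2 (2.1e-32). Against the d0 average the region stood 13.7-fold higher at d2, 9.64-fold at d4 and 8.40-fold in XEN cells. By the log2 change at d2 it ranked 22nd of the 42403 regions, and by the change at 16 h 26th.

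Downstream of the gene, +23.1 kb (chr1:4473107-4475478, intergenic, also Early&Constant, ectopic and SOX17-bound) followed a similar course. Its libraries held 0.180, 0.324 and 0.319 RPM at 8 h and 1.71, 2.23 and 1.25 at d2. At d4 they held 1.5 and 1.63, and in XEN cells 1.55 and 1.24. The 8 h libraries lay below all of these without overlap, and d2, d4 and XEN libraries overlapped. The change against 8 h was 2.53 ± 0.32 at d2 (adjusted p = 1.2e-13), 2.43 ± 0.36 at d4 (5.2e-10) and 2.25 ± 0.36 in XEN cells (1.3e-08).

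The PTF-bound pair far downstream, nearer to the start of Rp1, a photoreceptor gene, than to that of Sox17, was most accessible at d2 and lower at d4 and in XEN cells. At +74.7 kb (chr1:4422117-4423099) the libraries gave 0.0807, 0.216 and 0.113 RPM at 8 h, 0.230, 0.326 and 0.436 at 16 h, and 0.447, 0.870 and 0.348 at d1. They reached 1.19, 1.36 and 1.08 RPM at d2, then 0.807 and 0.709 at d4, and 0.231 and 0.291 in XEN cells. The XEN libraries were thus back among the 16 h values. At +72.7 kb (chr1:4423566-4425737) the group averages were 0.372 RPM at d0, 0.704 at 16 h, 1.36 at d2, 0.796 at d4 and 0.382 in XEN cells, and it was the single SOXF region in the table's class of decreased GATA6 binding after Oct4 knockdown (6.25% of all regions). By the change at 16 h against d0 it ranked 18th of 42403 regions, with 0.87 on the log2 scale. Against 8 h the change at 16 h was 1.16 ± 0.32 at +74.7 kb (limma adjusted p = 0.19) and 1.09 ± 0.32 at +72.7 kb (0.23), and neither was called. Against the d0 averages the 16 h changes were 0.74 and 0.87. None of the 11 Sox17 regions was called at 16 h (0.00404% of all regions higher).

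Near the gene, +0.6 kb (chr1:4496237-4497180) covers untranslated exon sequence of Sox17 and +3.7 kb (chr1:4493473-4493867) covers coding exon sequence. By the table's classes of ES cell marks, +0.6 kb was a poised enhancer and +3.7 kb a promoter. At +0.6 kb the libraries gave 0.109, 0.282 and 0.202 RPM at 8 h, 0.997, 1.19 and 0.568 at d2, 0.818 and 0.759 at d4, and 0.554 and 0.617 in XEN cells. At +3.7 kb they gave 0.223, 0.277 and 0.178 at 8 h, 1.23, 1.3 and 0.909 at d2, 0.967 and 0.940 at d4, and 0.508 and 1.1 in XEN cells. At both, the 8 h libraries lay below all d2, d4 and XEN libraries, and the XEN libraries at +3.7 kb differed from each other more than those at d4. The d2 change against 8 h was 2.07 ± 0.32 at +0.6 kb (limma adjusted p = 1.5e-09) and 2.20 ± 0.32 at +3.7 kb (1.3e-10). At both, the 8 h average lay below the d0 average, and the d2 change against d0 was smaller, at 1.89 and 1.77. Per kb of region, the gene-body site +3.7 kb (2.91 RPM per kb at d2) and -74.5 kb (3.5) were the most accessible of the 11, and -40.4 kb had 1.4.

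The remaining Sox17 regions were split between strong and weak responders. At -74.5 kb (chr1:4571536-4572263), a Transient region with promoter marks but no annotated gene start, the libraries went from 0.280, 0.663 and 0.403 RPM at 8 h to 2.79, 3.14 and 1.70 at d2, 1.77 and 1.47 at d4, and 0.439 and 1.03 in XEN cells. Here the XEN libraries overlapped those of 8 h. At +17.5 kb, a Late region, the averages were 0.0594 RPM at d0, 0.273 at d2, 0.306 at d4 and 0.214 in XEN cells, and at -78.4 kb, also Late, 0.0499, 0.143, 0.232 and 0.266. These were the 2 Sox17 regions whose average was higher at d4 than at d2. At -97.0 kb the averages were 0.0383 at d0, 0.142 at d2 and 0.0512 at d4, and at +49.3 kb no group average exceeded 0.0933 RPM.

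Over the locus, limma called 5 of the 11 Sox17 regions higher at d1 than at 8 h (5.96% of the 24727 regions), 9 at d2 (36.8%) and 9 at d4 (30.5%). The regions not called at d2 were +49.3 kb (0.42 ± 0.32, adjusted p = 0.28) and -78.4 kb (0.93 ± 0.32, 0.0099, short of 2-fold). In XEN cells 6 of the 11 were called higher than 8 h (24.3%). The step from d1 to d2 called 8 of 11 (19.9%), with -40.4 kb at 2.14 ± 0.32 (3.1e-09), and the step from d2 to d4 called -97.0 kb lower (10.1%; -1.11 ± 0.36, adjusted p = 0.024). The d1 count rests on few libraries, since it was 2 without 8 h library A and 2 without d1 library B, and 2 after median centring. limma gave the same SE to each region within a comparison because it estimated a common variance. Its p-values here therefore do not measure the spread of a region's own libraries. In the fit over all resolved rows, used below for Sox7, the SE differed between regions. There the d2 change at -40.4 kb had a limma adjusted p of 3.3e-20. All comparisons with 8 h share the same 3 libraries of 8 h. Summed over the 11 regions, the 8 h averages were 0.857 of the d0 averages. From d0 to 8 h the averages changed by -0.43 at -40.4 kb, -0.43 at +3.7 kb and -0.37 at +74.7 kb on the log2 scale. Changes of these regions against 8 h are therefore larger than those against d0.

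**Figure D3:**
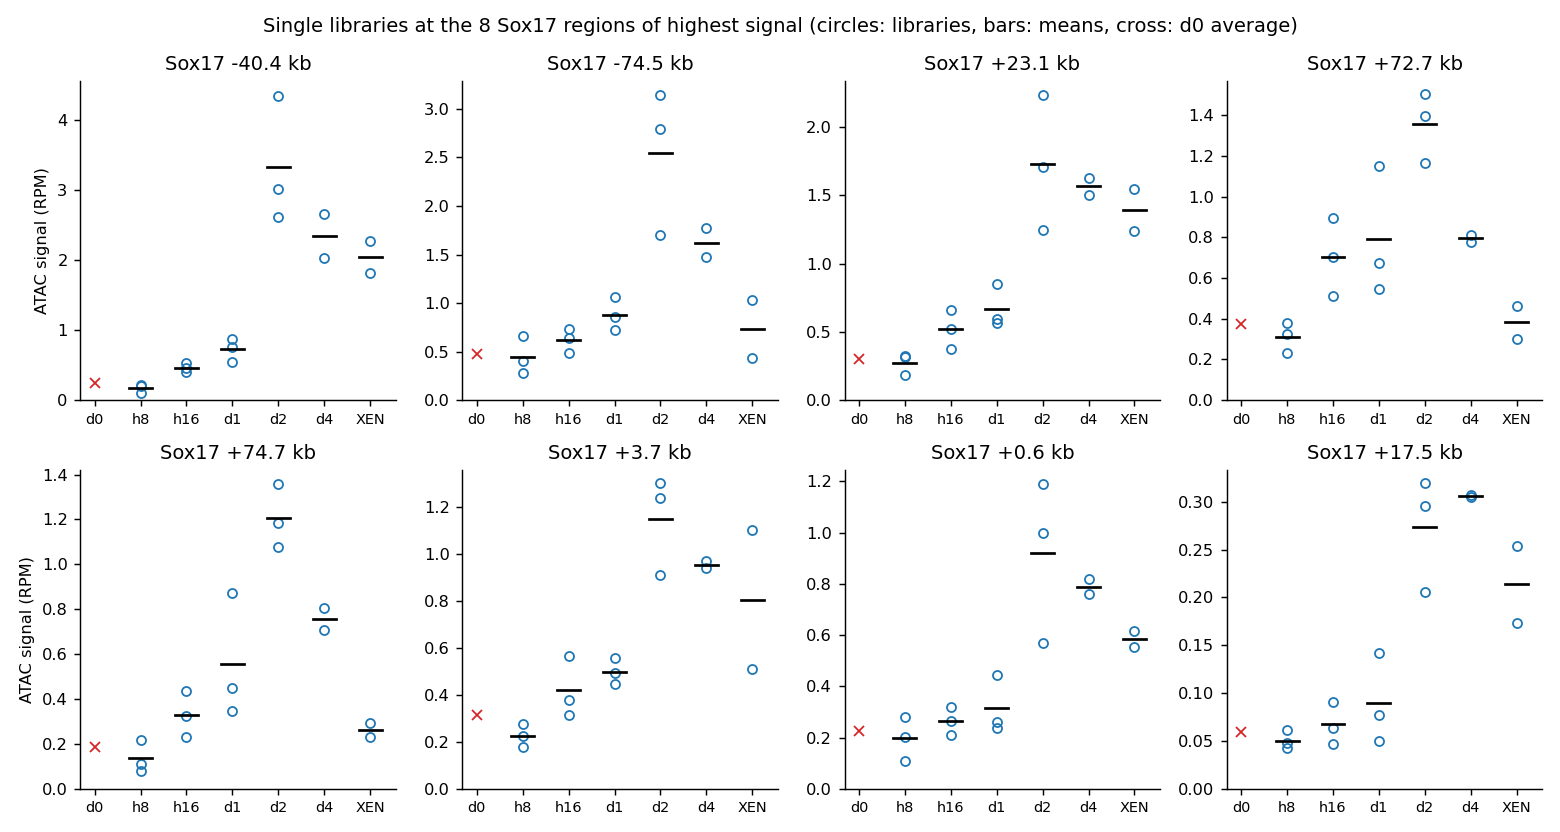
ATAC signal (RPM, linear axes starting at 0) of single libraries at the 8 Sox17 regions of highest signal, with circles for libraries, bars for their means and a cross for the d0 average. The d2 circles lie above all 8 h circles in each panel, and XEN circles of +72.7 and +74.7 kb fall to 0.231 to 0.462 RPM.

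At Sox7, regions that opened lay on both sides of the gene. The values of these rows were deposited with fewer digits, so libraries were resolved in part, and the limma fit over all resolved rows, added after the data were seen, was used. The region nearest to the start, -1.3 kb (chr14:63941852-63942892), an Early&Constant, SOX17-bound region with poised-enhancer marks, had group averages of 0.307 RPM at d0, 0.290 at 8 h, 0.434 at 16 h, 0.647 at d1, 1.52 at d2, 1.12 at d4 and 0.465 in XEN cells. Its d2 and d4 libraries were not resolved, and its XEN libraries (0.392 and 0.537 RPM) were higher than those of 8 h (0.185, 0.367 and 0.319), a difference that was not called (0.66 ± 0.35, limma adjusted p = 0.12).

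Further upstream, -5.0 kb (chr14:63938184-63939115), a closed Late region with ectopic PTF binding and SOX17, opened strongly. Its libraries gave 0.0475, 0.0799 and 0.0750 RPM at 8 h, 0.0522, 0.0815 and 0.109 at 16 h, and 0.110, 0.133 and 0.138 at d1. They gave 0.561 and 0.407 at d4 and 0.231 and 0.208 in XEN cells, while the d2 average was 0.549. Libraries of d1, XEN and d4 formed 3 separate ranges, each above all 8 h libraries. The change against 8 h was 2.40 ± 0.34 at d4 (limma adjusted p = 7.3e-09) and 1.37 ± 0.34 in XEN cells (6.3e-04).

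Beside them, 2 regions behaved otherwise. The region -7.0 kb (chr14:63936168-63937095), bound by PTF in ES cells and carrying the OCT4:SOX2 match printed above, had averages of 0.360 RPM at d0, 0.381 at 8 h, 0.363 at 16 h and 0.451 at d1, then 0.212 at d2 and 0.106 at d4, and 0.212 in XEN cells. Its libraries were resolved at d4 (0.0855 and 0.126) and in XEN cells (0.185 and 0.239) only, so its fall from d0 by d4, to 0.293 of the d0 average, has no replicate test. The region -2.8 kb (chr14:63940199-63941580), a SOX17-bound Transient region whose SOX17 match (12.83) scored above 98.4% of the regions with a match, kept averages between 0.408 and 0.535 RPM in all 7 groups.

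Downstream of Sox7, 3 of the 4 regions with resolved d4 libraries were called higher at d4 (31.6% of all resolved regions). At +93.0 kb (chr14:64036079-64037169) the libraries were 0.0617, 0.118 and 0.113 RPM at 8 h, 0.243, 0.302 and 0.187 at d1, 1.00 and 0.794 at d4, and 0.392 and 0.340 in XEN cells, in ranges that did not overlap. Its neighbour +91.9 kb gave 0.0665, 0.108 and 0.155 at 8 h, 0.226, 0.320 and 0.195 at d1, 0.476 and 0.477 at d4, and 0.231 and 0.364 in XEN cells. The changes at d4 against 8 h were 2.89 ± 0.35 (limma adjusted p = 3.4e-11) and 1.91 ± 0.35 (3.1e-06). Closer to the gene, +23.2 kb, with the best GATA6 match of the locus (13.76), gave 0.0237, 0.0564 and 0.0938 at 8 h, 0.138, 0.271 and 0.187 at d1, 0.289 and 0.291 at d4, and 0.162 and 0.142 in XEN cells. It was called higher at d1 already (1.42 ± 0.32, adjusted p = 0.0023) and at d4 (1.94 ± 0.36, 2.9e-06).

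In introns of Rp1l1, a relative of Rp1, 2 PTF-bound regions of the Sox7 window were highest at d2 and lower at d4. The averages at +58.5 kb (chr14:64001160-64003240, Early&Constant) were 0.419 RPM at d0, 0.702 at 16 h, 1.07 at d1, 2.05 at d2, 1.12 at d4 and 0.471 in XEN cells. At +49.7 kb (Transient, midpoint 872 bp from the Rp1l1 start) they were 0.246 at d0, 0.476 at d1, 0.583 at d2, 0.153 at d4 and 0.214 in XEN cells. The d4 libraries of +49.7 kb (0.15 and 0.156) lay below all 8 h libraries (0.218, 0.376 and 0.291), at -0.80 ± 0.35 (limma adjusted p = 0.049), short of 2-fold. After median centring this became -1.4 (adjusted p = 4.5e-05), past 2-fold.

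Upstream, in and near Pinx1, a telomerase inhibitor gene, the Sox7 window held 3 further regions. The intronic -82.9 kb had its midpoint 418 bp from the Pinx1 start and carried promoter marks in ES cells. It rose from 0.142, 0.263 and 0.211 RPM at 8 h to 0.385 and 0.518 at d4 (1.05 ± 0.35, limma adjusted p = 0.0086), a call lost after median centring. The intergenic -99.1 kb (chr14:63844384-63844840), a Late region, differed in timing from the rest. Its libraries were between 0.0143 and 0.0563 RPM in every group from 8 h to d2, then 0.123 and 0.0904 at d4, and 0.300 and 0.236 in XEN cells. It was higher in XEN cells than at 8 h by 2.12 ± 0.34 (limma adjusted p = 2.1e-07), with the d4 value between (0.99 ± 0.34, 0.012, short of 2-fold). At -64.7 kb no average from d0 to d4 exceeded 0.0321 RPM, and the XEN libraries were 0.0923 and 0.0624, from 4 and 18 reads.

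At Sox18, 1 of the 4 regions was called higher at d2 (31.5% of all resolved regions) and at d4 (31.6%). None of the 4 was SOX17-bound or PTF-bound by the table's classes. At -43.5 kb, which overlaps the start of Oprl1, the nociceptin receptor gene, the libraries gave 0.0522, 0.15 and 0.15 RPM at 8 h, 0.397, 0.400 and 0.297 at d2, 0.283 and 0.397 at d4, and 0.185 and 0.232 in XEN cells. None of the later libraries that were resolved overlapped those of 8 h. It was the single Sox18 region called higher, by 1.5 ± 0.31 at d2 (limma adjusted p = 3.3e-05) and 1.4 ± 0.35 at d4 (5.3e-04), and both fell short of 2-fold after median centring. At -13.3 kb, in an intron of the elongation factor gene Tcea2, the libraries gave 0.0570, 0.169 and 0.0750 at 8 h, 0.132, 0.275 and 0.149 at d1, 0.252, 0.191 and 0.122 at d2, and 0.0802 and 0.121 at d4, with overlap between 8 h and each of these groups. Its difference from 8 h was 0.79 ± 0.33 at d2 (adjusted p = 0.042, short of 2-fold). At d4, -52.0 kb differed from 8 h by 0.17 ± 0.35 (limma adjusted p = 0.73) and +73.8 kb, in introns of Prpf6 and Samd10, by -0.28 ± 0.35 (0.54). The errors at d4 leave room for a rise of up to about 2-fold at -52.0 kb and a fall of up to about 2-fold at +73.8 kb.

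Over all 3 loci, the fit on resolved rows called 8 of 22 SOXF regions higher at d1 (5.44% of 38968 regions), 10 of 17 at d2 (31.5%) and 15 of 23 at d4 (31.6%), with 0 lower at d4 (5.66%). Sox7 -7.0 kb, whose average fell more than 2-fold from d0 to d4, was not among the 23. Its 8 h libraries were not resolved, so the 0 does not cover it. Among Sox7 and Sox18 regions the d1 calls numbered 3, and 0 without 8 h library A or without d1 library B. The d2 figures leave out many of the most open regions, whose reads could not be resolved there. The 15 regions called higher at d4 were 9 of 11 Sox17, 5 of 8 Sox7 and 1 of 4 Sox18 regions. In XEN cells 11 of 24 were called higher than 8 h (27.3%), made up of 6 of 11 Sox17, 5 of 9 Sox7 and 0 of 4 Sox18 regions.

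XEN cells and d4 cells differed at part of the SOXF regions, and the difference itself was tested. At Sox17, 3 of 11 regions were called lower in XEN cells than at d4 (13.5% of regions lower, 5.52% higher). These were +74.7 kb (-1.44 ± 0.40, limma adjusted p = 0.0036), +72.7 kb (-1.03 ± 0.40, 0.048) and -74.5 kb (-1.22 ± 0.40, 0.016). The call at +72.7 kb was lost in 15 alternative fits, among them median centring, quantile normalisation and both other pseudocounts. The difference was -0.19 ± 0.40 at -40.4 kb (0.78), -0.17 ± 0.40 at +23.1 kb (0.80) and -0.41 ± 0.40 at +0.6 kb (0.49), none of which was called. In the fit on resolved rows, Sox7 -5.0 kb (-1.03 ± 0.38, adjusted p = 0.041) and +93.0 kb (-1.22 ± 0.38, 0.014) were lower in XEN cells and -99.1 kb was higher (1.13 ± 0.37, 0.023), which makes 5 of 25 lower (12.8%) and 1 higher (6.45%). Refits without 1 of these libraries leave a group of 1, which is assumed to vary like the other groups. None of the 3 calls at Sox17 remained without d4 library A, although the differences were -1.35, -1.002 and -1.09, and 1 remained without d4 library B. None remained without the shallow XEN library A, where +74.7 kb was at -1.29, +72.7 kb at -1.32 and -74.5 kb at -0.63. The 3 at Sox7 likewise numbered 0 without either of these libraries, and 1 without d4 library B or without XEN library B.

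**Figure D4:**
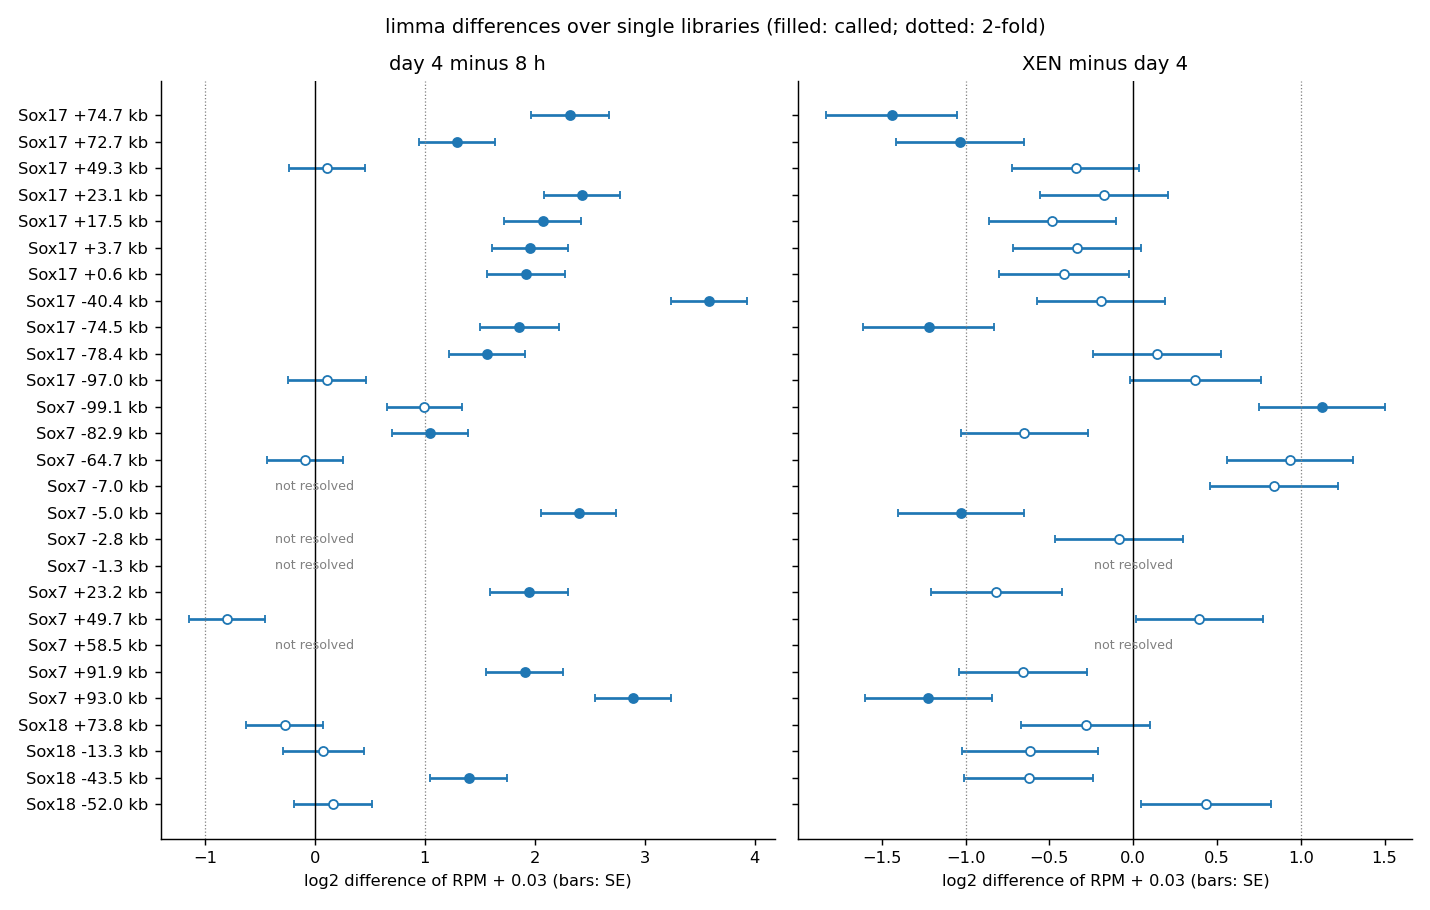
Differences of log2(RPM + 0.03) between d4 and 8 h (left) and between XEN and d4 (right) for each region, with SE bars, from limma over all resolved rows; filled points were called and dotted lines mark 2-fold. On the left 15 points are filled, led by Sox17 -40.4 kb at 3.58, and on the right 6 are filled, 5 of them below 0.

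The table's binding classes, which come from other assays of the study, differed in these courses. All 8 Early&Constant SOXF regions were SOX17-bound, were highest at d2, stood more than 2-fold above d0 at d2 and d4, and were lower in XEN cells than at d4. Of all 11875 Early&Constant regions, 72.6% were SOX17-bound, 67.2% were highest at d2, 64.2% were past 2-fold at d2 and 44.8% at d4, and 73.7% were lower in XEN cells than at d4. The median d4 to d2 ratio of the 8 was 0.721, beside 0.734 over the class. Of the 8 Late regions 3 were lower at d4 than at d2 (32.9% of all Late regions), and the median ratio was 1.06 (1.23 over 14243 Late regions). Of the 11 Transient regions 10 were lower at d4 (83.8%), with a median ratio of 0.636 (0.630 over 16285). The median change from d0 to d2 was 2.21 in the Early&Constant, 1.44 in the Late and 1.15 in the Transient SOXF regions, beside 1.28, 0.75 and 0.18 over these classes.

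SOX17 binding was listed at 17 of the 27 regions, at 63.0% compared with 44.5% of all regions, and was distributed as 9 of 11 at Sox17, 8 of 12 at Sox7 and 0 of 4 at Sox18. The median change at d2 was 2.20 in the 17 and 0.29 in the 10 without SOX17, beside 1.24 and 0.30 over all regions with and without SOX17. Of the 17, 15 were more than 2-fold above d0 at d4 (55.9% of all SOX17-bound regions), and of the 10, 3 were (11.04% of all without SOX17). PTF were bound before induction at 5 regions (18.5%, beside 20.8% of all regions) and ectopically at 7 (25.9%, beside 16.6%). The median change of the 5 was 1.79 at d2 and 0.03 in XEN cells, beside 0.28 and -0.64 over all regions of that class. For the 7 it was 2.42 and 1.39, beside 1.65 and 0.58. Facultative heterochromatin in ES cells was the class of 11 of the 27 (40.7%, compared with 22.3% of all regions).

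By the same 100 kb rule, the median change at d4 was 1.41 over 35 regions of Gata6 and Gata4, 1.19 over 182 regions of 12 other PrE genes, 0.46 over 84 regions of 15 other Sox genes and -0.13 over 45 regions of the core pluripotency genes Pou5f1, Sox2, Nanog and Esrrb. The SOXF value of 1.35 was nearest to that of the GATA loci. In XEN cells these medians were 1.14, 0.75, 0.08 and -0.56, beside 0.65 for the SOXF regions. The lists were not tested against each other.

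The 16 recovered libraries had a depth of 181 to 288 M reads, apart from 1 of the 2 XEN libraries with 43.3 M, in which 1 read is 0.0231 RPM. Library medians differed within groups as well, with the 3 of 8 h spanning -0.38 to 0.24 around their mean on the log2 scale. No XEN value here rests on that library alone, but Sox17 +74.7 kb had 10 reads in it and -74.5 kb 19. At the edges of the rule, Sox17 -97.0 kb, Sox7 -99.1 kb and Sox18 +73.8 kb were the last regions inside. The first outside were Sox17 -101.1 kb (0.0930 RPM at d0 and 0.0933 at d4), Sox7 +102.9 kb (0.255 and 0.881) and Sox18 +183.7 kb (0.0643 and 0.0672).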

How the data were processed

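ATAC-seq was performed by the authors on mouse ES and XEN cells. Per the study's methods and the submitters' processing notes, reads were trimmed with cutadapt, aligned with Bowtie2 to mm10, filtered, deduplicated and shifted for the Tn5 cut, and fragments under 100 bp were counted in GATA6 peaks. The deposited table holds RPM averaged by the authors over the samples of each group, next to motif scores (deposited FIMO scores) and binding classes. Of its 105 columns the 7 ATAC averages were used, and 52 per-sample columns of other assays were not.

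From each average, the whole reads of single libraries were recovered as the combination of read steps that gives its digits (1 read is added to every region). This gave 16 libraries for 8 h onwards and none for d0. For XEN cells 2 libraries fitted the average, where the labels list 3 samples. Library letters are arbitrary. Rows with all digits (24753) were decoded at 99.9% or more. Rows with 7 digits, which include all Sox7 and Sox18 regions, were used where a single solution existed, which was right in 100% of a check on rounded full rows. Libraries were compared with limma 3.58.1 (R 4.3.3) on log2(RPM + 0.03) against 8 h, with a call at adjusted p under 0.05 and a change over 1. Scripts were tested on simulated data. The study's methods describe the samples as independent cultures.

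The members and lists were chosen with earlier results of these data known. Named regions were those nearest to the start, most open at d0, with the 3 largest rises and 2 largest falls at day 4, the largest rise at day 2, the highest in XEN cells and the best GATA6 score. The others (such as Sox17 +74.7, +3.7 and -78.4 kb, and Sox7 -99.1, -82.9, -64.7 and -2.8 kb) were named after their values were seen, so that each region is accounted for. Alternatives were pseudocounts of 0.006 and 0.15 RPM, median centring, quantile normalisation, a filter at 0.1 RPM, each library left out, and 8 h with 16 h as baseline. Promoter sequences of the 3 genes were not used here.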

Additional observations from a re-analysis of the deposited data

How the results depend on the processing

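No call on a SOXF region reversed under any alternative. Of 1824 refits of single regions, 100 lost a call, 14 gained one and 1710 kept their status. The 1710 include regions that were called in neither fit, so they do not measure how stable the calls were. The d1 call was lost in 9 refits at Sox17 +3.7 kb and in 7 at Sox7 +93.0 kb. Between XEN cells and d4, the call was lost in 15 refits at Sox17 +72.7 kb and in 8 at Sox7 -5.0 kb. No paired analysis was possible because the columns are group averages without replicate numbers and the recovered libraries carry arbitrary letters. In the shallow XEN library A 1 read is 0.0231 RPM, and the averages against d0 have no replicate error. The causes of the shifts given here were not tested.

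Over all regions, limma called 2 at 16 h, 1477 at d1, 9386 at d2, 9171 at d4 and 8057 in XEN cells against 8 h, and 4713 between XEN cells and d4. A pseudocount of 0.006 RPM gave 10 at 16 h. A pseudocount of 0.15 RPM gave 0, 152, 4875, 3911, 2697 and 1593 in that order. Median centring gave 92 at 16 h and 418 at d1, quantile normalisation 155, 405 and, at d2, 5419, and the joint 8 h and 16 h baseline 449 at d1. The share of calls that were higher was 99.7% at d1, 97.0% at d2, 82.2% at d4 and 74.7% in XEN cells, and 29.0% between XEN cells and d4. Median centring made the first 4 of these 80.1%, 50.7%, 50.9% and 42.1%, and quantile normalisation made all 5 of them 72.8%, 52.8%, 50.9%, 50.8% and 48.5%.

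Of the 11 Sox17 regions, 0 were called at 16 h, 5 at d1, 9 at d2 and 3 between XEN cells and d4. At d1, 2 were called with a pseudocount of 0.15 RPM, with median centring, with quantile normalisation and with the joint baseline. At 16 h, 2 were called with either scaling. Between XEN cells and d4, 1 was called with 0.006 RPM and 0 after quantile normalisation. Of the resolved Sox7 and Sox18 regions, 3 were called at d1, 1 at d2, 6 at d4 and 3 between XEN cells and d4. With 0.006 RPM these were 1 at d1 and 0 between XEN cells and d4. With 0.15 RPM they were 0 at d1, 0 at d2 and 1 between XEN cells and d4. Median centring gave 1 at d1 and 0 at d2, and quantile normalisation 1, 0 and, between XEN cells and d4, 1. Of the averages, in either direction, 9 were past 2-fold at d1, 20 at d2, 19 at d4 and 11 in XEN cells. With 0.15 RPM this was 3 at d1 and 6 in XEN cells, with median centring 2 at d1, 12 at d2 and 6 in XEN cells, and with quantile normalisation 1 at d1 and 11 at d2. A window of 50 kb kept 14 of the 27 regions.

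Leaving out each library in turn, Sox17 calls ranged from 0 to 1 at 16 h (1 without 8 h library B or 16 h library A), 2 to 6 at d1 (2 without 8 h library A or d1 library B), 8 to 10 at d2 and 0 to 3 between XEN cells and d4 (0 without d4 library A or XEN library A). Sox7 and Sox18 calls ranged from 0 (without 8 h library A or d1 library B) to 5 (without 8 h library B) at d1, 1 to 2 at d2 (2 without 8 h library B or d2 library C), 5 to 7 at d4 and 0 to 3 between XEN cells and d4. Over all regions the range was 1 to 41 at 16 h, 268 (without d1 library B) to 2728 (without 8 h library B) at d1, and 1866 (without d4 library A) to 4985 between XEN cells and d4.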
